A study of Oryza sativa with 9 samples.

Results

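MATE (multidrug and toxic compound extrusion) genes encode membrane carriers, and the rice genes analysed here are the entries of the expression table whose description holds MATE as a word. Of 38652 entries, 30 were described in this way, as MATE efflux family protein, MATE efflux protein or MATE domain containing protein. Of these, 27 had a mean above 0 FPKM (fragments mapped to a gene, scaled to its length and to the number of fragments mapped in the library) over the 9 libraries, and these are the members described below. *LOC_Os01g56050*, *LOC_Os01g69010* and *LOC_Os06g29994* were listed at 0 in all 9 libraries and were left out. The member with the lowest mean was *LOC_Os10g37920*, listed at 0.0630 FPKM in GAT replicate 2 and at 0 in the other 8 libraries. The description was blank for 21533 entries (55.7%), so a MATE gene among those was not counted.

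MATE carriers move organic compounds and organic anions out of the cytosol in exchange for protons or sodium ions, either out of the cell or into the vacuole. In *Arabidopsis*, the carrier TT12 loads precursors of proanthocyanidins, the tannins of the seed coat, into the vacuole. FRD3 of *Arabidopsis* releases citrate that keeps iron soluble in the xylem, and EDS5 is a chloroplast carrier that takes part in the making of salicylic acid.

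The RNA came from leaves of IR64, a submergence-intolerant *indica* variety, sprayed at 20 days with 25 mL of solvent (control), of gibberellic acid at 100 mg/L (GA-treated, GAT) or of paclobutrazol at 200 mg/L (PB-treated, PBT). Paclobutrazol is an inhibitor of gibberellin biosynthesis. The seedlings were placed 2 days later under 100 cm of water, and leaves of all groups were sampled after 4 days of submergence, so the comparisons are between treatments under water. Each group has 3 libraries, which the study describes as biological triplicates. The labels do not say that they came from separate plants, and p-values measure only the spread between these libraries. The labels name ethanol as the solvent of the control and the study's methods name methanol.

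Entries listed at 0 numbered 14322 (GAT replicate 3) to 17529 (GAT replicate 1) per library, and between 4 and 11 of the 27 members were at 0 in a library. Pearson's r of log2(FPKM + 1), across 22946 entries that are not independent replicates, was 0.867 to 0.894 within groups and 0.807 to 0.859 between groups. The 3 RuBisCO small chain entries, which mark green leaf tissue, summed to between 13141 and 13842 FPKM in control libraries, between 6183 and 6428 in those of GAT and between 8655 and 9091 in those of PBT. The 12 chlorophyll A-B binding entries summed to 12372 to 13317, 4750 to 5741 and 5884 to 8602 FPKM in the same order. Of 4 root marker loci, 2 were in the table. *LOC_Os03g46470* was at 0.0501 FPKM or below in every library. Both loci summed to between 20.2 and 27.2 FPKM in control libraries, 15.9 and 18.6 in those of GAT and 20.2 and 22.3 in those of PBT, nearly all from *LOC_Os02g51110*. The leaf markers thus moved with the treatments and the root sum was lowest in GAT, and their part in the MATE results was not tested. In whole leaves, fewer cells of a type and less RNA per cell cannot be told apart.

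The deposited GO (gene ontology) terms divided the 27 members by membrane and transport activity. The largest class, with 10 members, carries terms for the vacuole membrane, solute:hydrogen antiport and proanthocyanidin biosynthesis, and *LOC_Os03g08900* belongs to it. A further 9 members have an antiporter term with no membrane other than "integral to membrane". *LOC_Os02g02980* and *LOC_Os12g01580* are assigned to the chloroplast membrane and *LOC_Os03g11734* to the plasma membrane. *LOC_Os10g20390* has terms for the plasma membrane and cadmium ion transport. The other 4 members carry no antiporter term, and the GO terms of 3 of them name a protein kinase activity, which goes against their description. Of the 30 entries, only *LOC_Os01g69010*, listed at 0 throughout, had a term for citrate transport. The members lie on 10 chromosomes, with 7 on chromosome 3 and 5 on chromosome 10.

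The MATE level of the leaf came mainly from a few members. *LOC_Os07g31884*, *LOC_Os04g48290* and *LOC_Os04g30490*, of the class with no membrane named, had the highest means over the 9 libraries, at 77.0, 40.8 and 21.6 FPKM. The 3 together made up 58.6% of the summed FPKM of the members in control libraries, 57.6% in GAT libraries and 72.6% in PBT libraries (means of 3). The next 5 members had means between 8.64 and 14.9 FPKM, and the other 19 were at 5.11 FPKM or below. FPKM is scaled to gene length, so these levels can be set side by side.

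**Figure D1:**
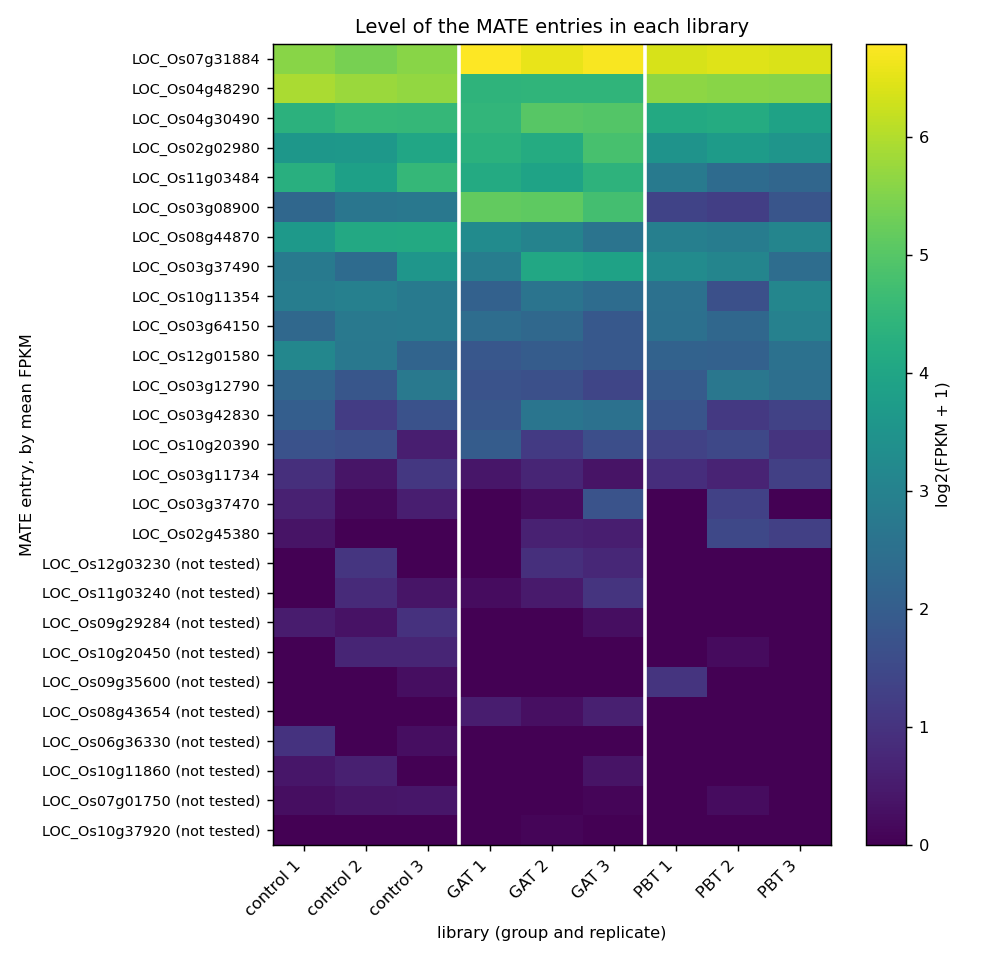
Heat map of log2(FPKM + 1) for the 27 MATE members (rows, by mean FPKM) in the 9 libraries (columns, 3 each of control, GAT and PBT). The upper 2 rows, *LOC_Os07g31884* and *LOC_Os04g48290*, are bright throughout, *LOC_Os03g08900* is bright only in the GAT columns, and the 10 members marked as not tested are dark in all groups.

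The order of the members differed between the groups. In the control, *LOC_Os04g48290* ranked first (50.2 to 60.3 FPKM) above *LOC_Os07g31884* (41.2 to 47.2), and their libraries did not overlap. In GAT, *LOC_Os07g31884* was first (93.6 to 109 FPKM) and *LOC_Os04g48290* ranked 5 (20.1 to 20.6). *LOC_Os03g08900* ranked 11 of 27 among control means, 2 among GAT means and 12 among PBT means. Its GAT libraries overlapped those of *LOC_Os04g30490*, which ranked next, so the order of these neighbours was not separated by the libraries. In PBT, the order of the 4 highest was *LOC_Os07g31884*, *LOC_Os04g48290*, *LOC_Os04g30490* and *LOC_Os02g02980*, and each stood clear of the next.

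For the tests, 17 members with a mean of at least 0.5 FPKM were fitted among 22946 entries with limma on log2(FPKM + 1). The last member inside this limit was *LOC_Os02g45380* (mean 0.506 FPKM) and the first outside was *LOC_Os12g03230* (0.298). A differentially expressed gene (DEG) had to pass a Benjamini-Hochberg adjusted p of 0.05 and to differ by 1 or more on the log2 scale. In each comparison 3 of the 17 members (17.6%) were DEGs. Over all tested entries the share was 8.42% for GAT/Control, 4.34% for PBT/Control and 6.30% for PBT/GAT. The count in PBT/Control fell to 1 of 17 without control replicate 2, control replicate 3, PBT replicate 1 or PBT replicate 2, and no count of the other comparisons fell when a library was left out. *LOC_Os03g08900*, *LOC_Os07g31884*, *LOC_Os04g48290*, *LOC_Os11g03484* and *LOC_Os08g44870* made up the 5 members that were DEGs in at least 1 comparison (29.4% of 17, against 12.3% of all tested entries). Only *LOC_Os03g08900* was a DEG in all 3. With so few members the counts describe these genes and were not tested as a list. Fold changes below are on the log2(FPKM + 1) scale with their standard error, and the ratios are of mean FPKM.

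**Figure D2:**
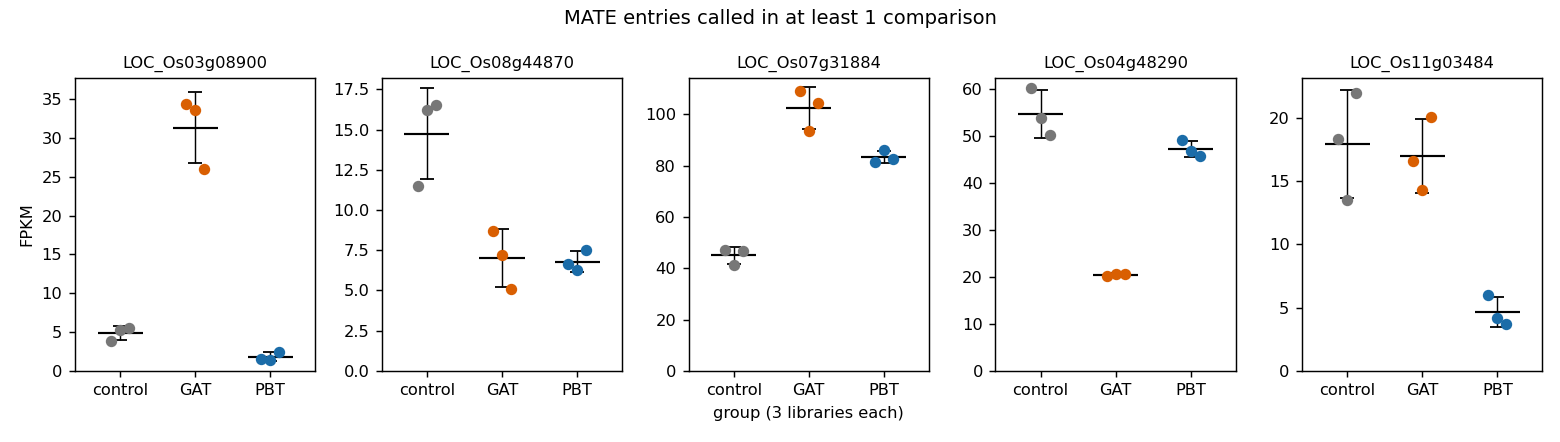
FPKM of the 5 MATE members that were DEGs in at least 1 comparison (1 panel each, axes from 0), with points for the 3 libraries of each group, a line for the mean and bars for the SD. *LOC_Os03g08900* is high in GAT (26.0 to 34.3 FPKM) and low in PBT (1.41 to 2.45), *LOC_Os04g48290* is lowest in GAT, and *LOC_Os11g03484* is lowest in PBT.

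*LOC_Os03g08900*, annotated as a vacuole membrane solute:hydrogen antiporter, had the largest log2 fold change of the tested members in GAT/Control and in PBT/GAT. It was at 3.85, 5.32 and 5.55 FPKM in the control, at 34.3, 33.7 and 26.0 in GAT and at 1.56, 1.41 and 2.45 in PBT. All libraries of GAT were above those of the control, and all of PBT were below. The mean rose 6.39-fold, from 4.91 ± 0.918 FPKM (SD, n = 3 control libraries) to 31.3 ± 4.60 (SD, n = 3 GAT libraries), with a log2 fold change of 2.46 ± 0.22 (limma adjusted p = 0.000210). That estimate was the 194th highest of the 22946 entries. In PBT/Control the mean fell to 1.81 ± 0.564 FPKM, with a log2 fold change of -1.08 ± 0.22 (adjusted p = 0.0236). The call in PBT/Control was lost without control replicate 2 or 3 or PBT replicate 1 or 2, with an adjusted p of 0.0743 to 0.0847, and in a fit of only those 2 groups (0.0699). Over the alternatives tried it was 0.0147 to 0.0847. Between the treatments, GAT was 17.3-fold above PBT, and the log2 fold change of PBT/GAT was -3.53 ± 0.22 (adjusted p = 5e-05), the 49th lowest of all tested entries.

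*LOC_Os08g44870*, of the same annotation class, was lower after both treatments. Its control libraries were at 11.5, 16.2 and 16.5 FPKM, those of GAT at 8.72, 7.22 and 5.10, and those of PBT at 6.64, 6.25 and 7.50. Every treated library was below every control library, and the GAT and PBT libraries overlapped. In PBT/Control the log2 fold change was -1.0004 ± 0.23 (adjusted p = 0.0359), at the fold limit. The call was lost without control replicate 2 or 3, GAT replicate 2 or any of the PBT libraries (adjusted p = 0.0568 to 0.114), and with the libraries scaled to 1 median (estimate -0.95). Over the alternatives tried the adjusted p was 0.0211 to 0.114. In GAT/Control it was -0.98 ± 0.23 (adjusted p = 0.0248), just short of the fold limit, which it passed with a pseudocount of 0.1 or 0.5, with either rescaling of the libraries, and without control replicate 1 or GAT replicate 1 (-1.01 to -1.14). Its adjusted p was above 0.05 in a fit of only those 2 groups (0.0679) and with the replicate number in the fit (0.0687). The same held without control replicate 2 or 3 or GAT replicate 2 or 3 (0.0586 to 0.0777). The adjusted p was 0.0125 to 0.0777 over the alternatives tried. For PBT/GAT the estimate was -0.02 with a 95% interval of -0.53 to 0.50.

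The other 3 tested members of the vacuole membrane class were not DEGs. *LOC_Os03g37490* was at 5.92, 4.18 and 10.8 FPKM in the control, and the other groups overlapped it, with 6.30, 15.9 and 14.1 in GAT and 8.68, 7.50 and 4.37 in PBT. Its neighbour on chromosome 3, *LOC_Os03g37470*, was near 0 in most libraries, and its highest value was 2.33 FPKM in GAT replicate 3. *LOC_Os03g42830* averaged 2.22 ± 0.875 FPKM (SD, n = 3) in control libraries, 4.16 ± 1.46 after GA and 1.70 ± 0.630 after PB, with adjusted p of 0.245 in GAT/Control and 0.130 in PBT/GAT. A second entry of that locus was at 5.92 and 1.89 FPKM in GAT replicates 1 and 3 and at 0 in the other 7 libraries. With the entries of *LOC_Os03g42830* summed, GAT/Control was 1.29 ± 0.29 and PBT/GAT -1.53 ± 0.29, both past the DEG limits. The second entry reached a mean of 0.5 FPKM only through its GAT libraries. These summed calls therefore rest on the group where it is high, and no p-value of them is given. Over the 5 tested members of the class, the median log2 fold change was 0.67 for GAT/Control, -0.24 for PBT/Control and -0.69 for PBT/GAT. The medians over all tested entries were 0.03, -0.04 and -0.07.

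Among the antiporters with no membrane named, *LOC_Os07g31884* was higher after both treatments and *LOC_Os04g48290* was lower after GA. *LOC_Os07g31884* was at 47.2, 41.2 and 46.6 FPKM in the control, 109, 93.6 and 105 in GAT and 81.3, 86.1 and 82.8 in PBT. No pair of groups overlapped. It rose 2.28-fold in GAT/Control, with a log2 fold change of 1.17 ± 0.11 (adjusted p = 0.000299), and was a DEG there in every fit that left out a library. In PBT/Control the change was 0.88 ± 0.11 (adjusted p = 0.00268), a 1.85-fold ratio of means that is past the adjusted p and short of the fold limit. PBT/GAT gave -0.29 with a 95% interval of -0.55 to -0.04 (adjusted p = 0.157).

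*LOC_Os04g48290* was at 60.3, 53.8 and 50.2 FPKM in the control, 20.1, 20.6 and 20.6 in GAT and 49.1, 46.8 and 45.8 in PBT. The GAT libraries were below all others and close to each other. It fell in GAT/Control with a log2 fold change of -1.37 ± 0.12 (adjusted p = 0.000172), the control mean being 2.68-fold that of GAT. In PBT/Control the estimate was -0.21 with a 95% interval of -0.48 to 0.07 (adjusted p = 0.404), although the PBT libraries all lay below those of the control. PBT/GAT was 1.17 ± 0.12 (adjusted p = 0.000629).

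*LOC_Os11g03484* was lowest in PBT. It was at 18.3, 13.5 and 22.0 FPKM in the control, 16.6, 14.3 and 20.1 in GAT and 5.97, 4.20 and 3.70 in PBT. The control and GAT libraries overlapped, and every PBT library was below them. It fell in PBT/Control, with a log2 fold change of -1.75 ± 0.24 (adjusted p = 0.00365), the control mean being 3.88-fold that of PBT, and PBT/GAT was -1.69 ± 0.24 (adjusted p = 0.00327). Both calls were made in every fit that left out a library. In GAT/Control the estimate was -0.06 with a 95% interval of -0.60 to 0.48 (adjusted p = 0.914). The ends of rice chromosomes 11 and 12 share a recently duplicated segment, and how reads that map to both copies were divided is not stated in the sources used here, so the level of *LOC_Os11g03484* is uncertain to that extent. The same limit holds for the other members near these ends, *LOC_Os12g01580*, *LOC_Os11g03240* and *LOC_Os12g03230*.

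Of the remaining members in this class, *LOC_Os04g30490* was at 19.7, 22.4 and 21.8 FPKM in the control, 20.9, 31.6 and 30.2 in GAT and 16.4, 17.0 and 14.1 in PBT. The PBT libraries lay below those of both other groups, and those of GAT overlapped the control. PBT/GAT was -0.74 ± 0.18 (adjusted p = 0.0389), past the adjusted p and short of the fold limit (0.00812 to 0.108 over the alternatives tried), and the adjusted p was 0.300 for GAT/Control and 0.263 for PBT/Control. A second entry of this locus averaged 2.95 FPKM and was at 10.0 in GAT replicate 1. With both entries summed, PBT/GAT was -0.88 ± 0.15 (limma adjusted p = 0.00926), still short of the fold limit. The summed adjusted p was 0.146 for GAT/Control and 0.121 for PBT/Control. *LOC_Os10g11354* (2.14 to 7.59 FPKM over the 9 libraries) and *LOC_Os02g45380* (0 to 1.79 FPKM) were not DEGs in any comparison, although the GAT libraries of the former lay below its control libraries.

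The chloroplast membrane members gave estimates of opposite sign in GAT/Control. *LOC_Os02g02980* was at 11.1, 11.3 and 15.3 FPKM in the control, 19.3, 17.1 and 27.0 in GAT and 10.3, 12.2 and 10.6 in PBT. The GAT libraries were above all others. GAT/Control was 0.70 ± 0.21 (adjusted p = 0.0687), and PBT/GAT was -0.86 ± 0.21 (adjusted p = 0.0381, 0.0221 to 0.102 over the alternatives tried), short of the fold limit. *LOC_Os12g01580* was at 7.74, 5.53 and 3.56 FPKM in the control and at 2.59, 2.91 and 2.65 in GAT, with no overlap, and at 3.36, 3.27 and 4.74 in PBT. Its GAT/Control estimate was -0.78 ± 0.27 (adjusted p = 0.103), and it became a DEG there, with -1.02 ± 0.23 (adjusted p = 0.0394), when control replicate 3, the lowest of the control libraries, was left out, which made the DEGs of GAT/Control 4.

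The plasma membrane members and those with no antiporter term were low in all groups. *LOC_Os03g11734* ranged from 0.289 to 1.42 FPKM and *LOC_Os10g20390*, with the cadmium term, from 0.497 to 2.97, and the groups overlapped in every comparison. The entry of *LOC_Os10g20390* also carries transcripts of *LOC_Os10g20350*, and that of *LOC_Os03g64150* (2.63 to 6.95 FPKM, groups overlapping) transcripts of *LOC_Os03g64140*, so their FPKM are not of 1 locus alone. *LOC_Os03g12790* was at 3.72, 2.55 and 5.69 FPKM in the control, 2.30, 2.16 and 1.68 in GAT and 2.89, 5.43 and 4.60 in PBT. Its GAT libraries were below all others, with estimates of -0.67 ± 0.29 in GAT/Control (adjusted p = 0.203) and 0.78 ± 0.29 in PBT/GAT (adjusted p = 0.153).

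**Figure D3:**
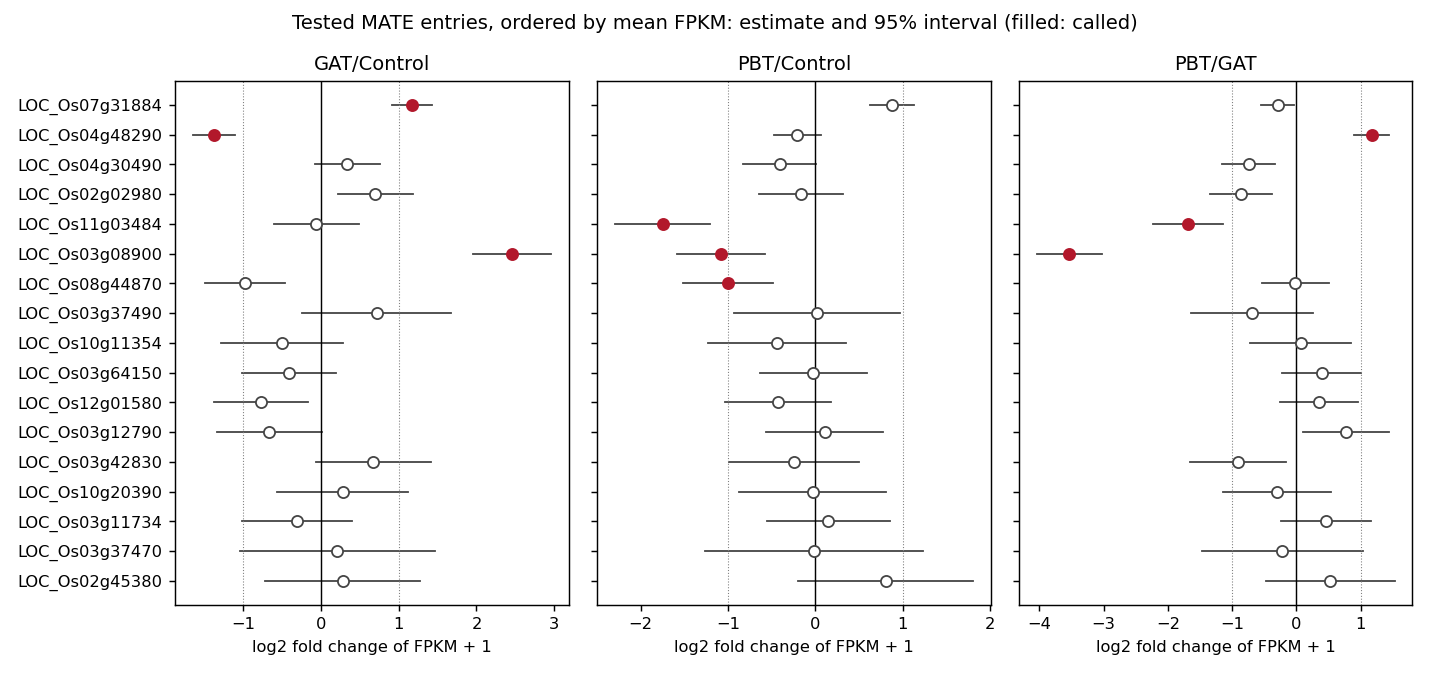
Log2 fold change of FPKM + 1 with its 95% interval for the 17 tested MATE members (rows, by mean FPKM) for the 3 comparisons (panels), with dotted lines at the fold limit and filled points for DEGs. Each panel holds 3 filled points. *LOC_Os03g08900* has the highest estimate in GAT/Control (2.46) and the lowest in PBT/GAT (-3.53), and the widest intervals are those of *LOC_Os03g37470* and *LOC_Os02g45380*, the tested members of lowest mean FPKM.

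Over the 17 tested members, 2 were upregulated and 1 downregulated in GAT/Control (4.71% and 3.72% of all tested entries). In PBT/Control 0 were upregulated and 3 downregulated (2.87% and 1.47%), of which 1, *LOC_Os11g03484*, was a DEG in every fit that left out a library. In PBT/GAT the counts were 1 and 2 (3.48% and 2.82%). With no fold limit, 4 members passed the adjusted p in GAT/Control, 2 higher and 2 lower, where 12.0% of all tested entries did (6.82% higher and 5.17% lower). In PBT/Control 4 passed, 1 higher and 3 lower (6.37% of all, 3.90% higher and 2.47% lower), the higher member being *LOC_Os07g31884*. In PBT/GAT 5 passed, 1 higher and 4 lower (9.37% of all, 4.65% higher and 4.72% lower). An unadjusted p under 0.05 was reached by 6, 4 and 8 members in the order of the comparisons, and by 25.1%, 19.8% and 23.3% of all tested entries. The libraries did not overlap for 8 members (47.1%) between GAT and control, for 6 (35.3%) between PBT and control and for 9 (52.9%) between PBT and GAT. Over all tested entries those shares were 29.5%, 26.3% and 30%. The median log2 fold change of the 17 was 0.21, -0.16 and -0.22 in the order of the comparisons. GAT/Control and PBT/Control share the control libraries. Among the 12 members that were DEGs in no comparison, estimates ran from -0.78 to 0.71 for GAT/Control, from -0.44 to 0.81 for PBT/Control and from -0.91 to 0.78 for PBT/GAT. Their standard errors were 0.18 to 0.55, and for the noisier members a change as large as the fold limit was not detectable. Adding 1 to the FPKM also shrinks the estimates of low members. *LOC_Os03g11734* and *LOC_Os03g37470* had group means of at most 0.964 and 0.835 FPKM. A change of 1 on this scale was out of reach for them, so neither could be a DEG although both count among the 17. *LOC_Os02g45380*, with means of 1.08 FPKM in PBT and 0.0941 in the control and overlapping libraries, had an estimate of 0.81. It reached the limit of 0.5 FPKM only through PBT replicates 2 and 3 (1.79 and 1.46 FPKM), so nothing is drawn from that estimate.

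The summed FPKM of the 27 members was 208, 196 and 217 in the control, 255, 257 and 272 in GAT and 201, 203 and 201 in PBT. The GAT libraries were above all others, and those of PBT overlapped the control. The difference in the mean sum between GAT and control, 54.2 FPKM, was made up of 57.5 from *LOC_Os07g31884*, 26.4 from *LOC_Os03g08900* and -34.3 from *LOC_Os04g48290*, with smaller parts from the other members. The mean sum in PBT differed from the control by -5.21 FPKM, with 38.4 from *LOC_Os07g31884*, -13.3 from *LOC_Os11g03484*, -7.95 from *LOC_Os08g44870* and -7.51 from *LOC_Os04g48290*. The sum was not tested.

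**Figure D4:**
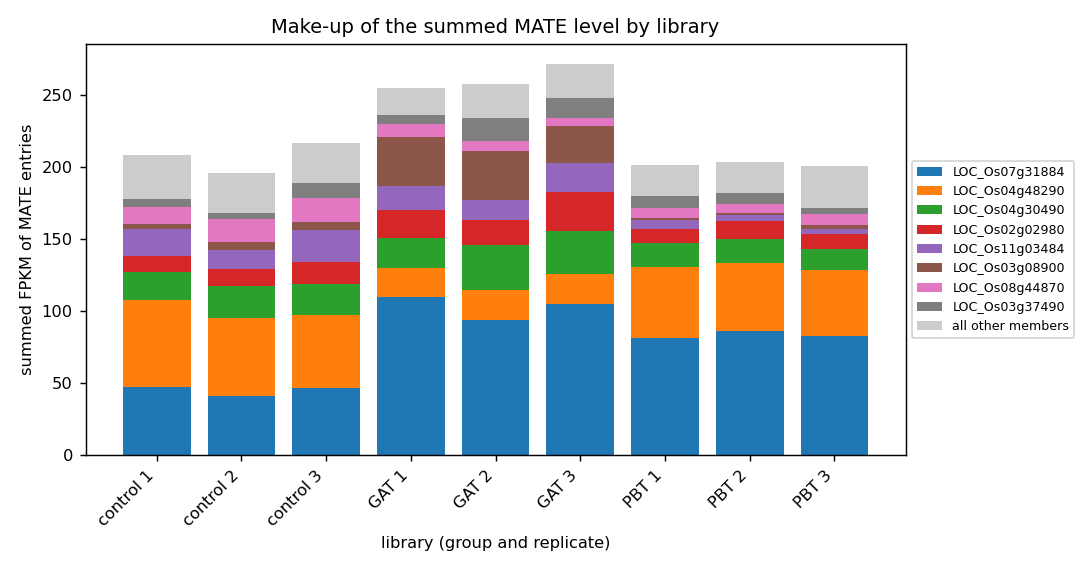
Summed FPKM of the 27 MATE members in each library (stacked bars from 0, in colour the 8 members with the highest mean and in light grey the other 19). The GAT bars reach 255 to 272 FPKM and the others 196 to 217, with *LOC_Os07g31884* the largest part in GAT and PBT and *LOC_Os04g48290* the largest in the control.

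The 10 members under the limit of 0.5 FPKM were at 1.08 FPKM or below in every library. Their group means were at 0.545 FPKM or below, so a change of 1 on the log2(FPKM + 1) scale was out of reach. No DEG could therefore arise among them. In a limma fit without the limit, among 34588 entries, their estimates ran from -0.602 to 0.480 over all comparisons. *LOC_Os08g43654*, of the vacuole membrane class, was listed at 0 in all control and PBT libraries and at 0.468, 0.215 and 0.520 FPKM in GAT. It counts as a member only through these low GAT values, so no test of it is given. *LOC_Os09g29284*, of the same class, was at 0.424, 0.262 and 0.949 FPKM in the control, listed at 0 in every PBT library and at 0, 0 and 0.181 in GAT. *LOC_Os11g03240* and *LOC_Os12g03230*, which lie near the ends of chromosomes 11 and 12, had 3 and 5 libraries at 0 and reached 1.01 and 1.08 FPKM.

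Proton pumps build the gradient that many MATE carriers use. Of 21 tested entries of plasma membrane ATPases, vacuolar ATP synthase subunits and H+ pyrophosphatases, 0 were DEGs by limma in GAT/Control and in PBT/Control (8.42% and 4.34% of all tested entries), with an unadjusted p under 0.05 for 4 and 2 (25.1% and 19.8% of all). In PBT/GAT 1 was a DEG, *LOC_Os02g55890*, an H+ pyrophosphatase that was at 10.3 ± 0.518 FPKM in GAT and 3.90 ± 0.641 in PBT (SD, n = 3, log2 fold change -1.21 ± 0.25, adjusted p = 0.0176). The median log2 fold changes of the pumps were 0.00, -0.09 and -0.04 in the order of the comparisons.

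Several plant MATE carriers release citrate for iron transport, and 10 tested entries of iron and metal transport were read from the same fit. In GAT/Control, 1 was upregulated and 2 downregulated (30% of the 10, against 8.42% of all tested entries). In PBT/Control and PBT/GAT 0 were DEGs by limma (4.34% and 6.30% of all), with an unadjusted p under 0.05 for 2 in each (19.8% and 23.3% of all). *LOC_Os07g15460*, a metal transporter described as Nramp6, rose from 0.812 ± 0.564 FPKM to 5.82 ± 1.81 (SD, n = 3 each, log2 fold change 1.93 ± 0.36, adjusted p = 0.00934). *LOC_Os07g48980*, a nicotianamine synthase, whose product chelates iron, fell from 6.80 ± 0.649 to 1.97 ± 0.633 FPKM (-1.41 ± 0.28, adjusted p = 0.0122). *LOC_Os08g10630*, a metal cation transporter, fell from 2.22 ± 0.563 to 0.402 ± 0.376 FPKM (-1.22 ± 0.29, adjusted p = 0.0287). In PBT, *LOC_Os07g48980* was also low, at 2.71 ± 1.14 FPKM. Its PBT/Control change was past the fold limit and just short of the adjusted p (-1.11 ± 0.28, adjusted p = 0.0516). *LOC_Os07g15460* was at 1.96 ± 0.953 FPKM in PBT (0.71 ± 0.36, adjusted p = 0.329) and *LOC_Os08g10630* at 1.58 ± 0.326 (-0.32 ± 0.29, adjusted p = 0.615). The median log2 fold changes over the 10 entries were -0.29, -0.07 and 0.05.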

How the data were processed

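Low-quality and adaptor reads were discarded by the authors, who used Tophat for mapping to the MSU rice genome and Cufflinks for transcripts, and deposited a table of FPKM per entry and library. The values in 4 of the 9 files of single libraries differ from those of the same library in the table, so only the table was analysed, by its column names. Which source is right was not tested. limma 3.58.1 (R 4.3.3) was fitted to log2(FPKM + 1) of 22946 entries (mean over 9 libraries not under 0.5 FPKM), with 3 group means over all 9 libraries, a variance trend and Benjamini-Hochberg adjustment per comparison. The fit was tested on simulated data. FPKM carry no fragment counts, so precision rests on the spread of 3 libraries and 0 is given as listed. The members, the lists of pumps and metal transporters (by description) and the tests were chosen with earlier results of these data known. Named members were the DEGs, *LOC_Os03g08900* and the 5 with the highest mean, at most 3 DEGs of each other list with the largest change, and tandem neighbours of a named member. Other members, the classes by GO term and the summed FPKM were picked once their values had been seen. Alternatives varied the pseudocount, filter, scaling, libraries, replicate block, treatment of 0, entries of a locus, variance trend and limits. Gene symbols and sequences were not used here.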

Additional observations from a re-analysis of the deposited data

How the results depend on the processing

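Of 441 values of 7 named members over up to 21 alternatives, 411 kept their direction and side of the DEG limits, 16 lost a call, 7 gained one and 7 changed sign, none of them a call. With 1 library left out, *LOC_Os11g03484* in GAT/Control was -0.2394 to 0.0923 and *LOC_Os08g44870* in PBT/GAT was -0.1999 to 0.1367, and the latter became 0.0757 with quantile normalization and 0.0666 with median scaling. In GAT/Control and PBT/GAT the 3 DEGs remained in every alternative, with at most 1 added, and leaving out 1 library gave 3 to 4 and 3 to 3. In PBT/Control the 3 DEGs became 1 without control replicate 2, control replicate 3, PBT replicate 1 or PBT replicate 2 (range 1 to 3), and *LOC_Os11g03484* remained in each. With the replicate block 1 remained in PBT/Control (*LOC_Os03g08900*, adjusted p = 0.0707, and *LOC_Os08g44870*, 0.0994, were lost). Deviations of libraries of the same number were nearly uncorrelated (r of -0.04 to 0.01 across entries, 9 pairs). An r over all entries does not show whether some genes share a block effect. The study names a randomized complete block design, and the labels do not say whether the numbers stand for blocks. With an adjusted p under 0.01 and no fold limit, 2 were called in PBT/Control, *LOC_Os11g03484* (lower, 1 of the 3 DEGs) and *LOC_Os07g31884* (higher). Rescaling moved the median of all entries by at most 0.07. A left-out library leaves 2 in its group. The causes were not tested.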
